A study of Homo sapiens with 208 samples.

Results

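The genes followed here were 10 members and targets of the YAP-TEAD transcription complex, namely CCN1, CCN2, ANKRD1, AMOTL2, AJUBA, YAP1, TEAD1, TEAD4, LATS2 and AMOTL1. A gene was taken when the RefSeq accession of an array probe belonged to it. All 10 were found among the 16958 genes that a probe could be assigned to, and all 10 were among the 13271 genes bright enough to be tested. YAP1 is a transcriptional coactivator that does not bind DNA itself, and TEAD1 and TEAD4 are DNA-binding factors that recruit it to promoters and enhancers. LATS2 is a kinase of the Hippo pathway that phosphorylates YAP1 and keeps it out of the nucleus, AMOTL1 and AMOTL2 are angiomotin-like proteins that bind YAP1 at cell junctions, and AJUBA is a LIM protein that restrains LATS kinases. CCN1 and CCN2 encode secreted matricellular proteins and ANKRD1 an ankyrin repeat protein, and the mRNAs of these 3 are commonly used as readouts of YAP activity in epithelial cells. CCN1 and CCN2 are also early response genes that growth factors can induce.

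RNA was taken from PC9, an established lung adenocarcinoma cell line with a deletion in EGFR that makes it sensitive to the EGFR kinase inhibitor gefitinib, and from PC9GRM2, a gefitinib-resistant clone selected from PC9 in the drug. Each line was starved for 48 h and then followed under no treatment, 0.5 μM gefitinib, 100 ng/ml EGF, or EGF and gefitinib together, with 26 time points from 0 to 24 h. These 8 courses comprised one-colour arrays, 1 per line, treatment and time point, so that time points stood in for replicates and p-values measure the spread over time points of 1 culture series. PC9GRM2 stands for 1 resistant clone. The values below are log2 signals after quantile normalization, differences are log2 differences between arrays of the same time point with their SE, and a gene was called when limma's moderated test, two-sided, gave a Benjamini-Hochberg adjusted p under 0.05 over all tested genes.

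The promoters of 7 members were at hand in a RefSeq table of build GRCh38.p14, and CCN1, TEAD1 and TEAD4 were not in it. The letters GGAATG, or CATTCC on the other strand, are the core of the MCAT element that TEAD proteins bind. They were looked for on both strands in the 250 bases before each start site, where 5 of the 9 promoters of these 7 members held them. AMOTL2 and AJUBA each had a further promoter without a match. Among 35116 promoters of this length 11.9% held at least 1 such match, 0.94% at least 2 and 0.0826% at least 3. CCN2 held 3 matches, whose first bases lay 169, 104 and 95 bases before the start, and ANKRD1 held 2, at 220 and 128 bases. YAP1, AMOTL2 and AJUBA held 1 each, at 162, 69 and 59 bases. The sequences of CCN2 (chr6:131951373-131951622, minus strand) and ANKRD1 (chr10:90921088-90921337, minus strand) are shown because they held more than 1 match, with the matches in capitals. A match is a description of the letters and not a measured binding site.
CCN2: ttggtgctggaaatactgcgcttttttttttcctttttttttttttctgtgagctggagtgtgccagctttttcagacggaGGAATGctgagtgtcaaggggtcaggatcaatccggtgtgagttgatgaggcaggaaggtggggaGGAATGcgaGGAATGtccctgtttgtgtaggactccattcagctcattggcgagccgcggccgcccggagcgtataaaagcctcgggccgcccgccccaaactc
ANKRD1: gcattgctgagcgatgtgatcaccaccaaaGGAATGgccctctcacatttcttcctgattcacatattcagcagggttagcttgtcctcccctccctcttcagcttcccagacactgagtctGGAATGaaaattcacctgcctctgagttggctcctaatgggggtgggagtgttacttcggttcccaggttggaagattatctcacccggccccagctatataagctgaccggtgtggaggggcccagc

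Before any comparison the arrays were set against their labels with DUSP6, SPRY4 and EGR1, feedback and early response genes downstream of EGFR. Gefitinib lowered DUSP6 by 6.81 ± 0.27 in PC9 and by 2.16 ± 0.21 in PC9GRM2 (log2 differences, n = 26, adjusted p = 1.14e-17 and 4.71e-10), and SPRY4 by 5.00 ± 0.13 and 1.61 ± 0.25 (adjusted p = 8.78e-22 and 2.07e-06). EGR1 fell by 3.79 ± 0.18 in PC9 (adjusted p = 3.87e-16) but was not called in PC9GRM2 (0.59 ± 0.31, adjusted p = 0.091), where it read 7.32 under gefitinib and 10.32 untreated at 0 h, and 11.52 and 8.67 at 8 h. The 0 h arrays of the gefitinib courses already differed from the untreated ones. DUSP6 read 9.32 and 12.80 at 0 h in PC9, and 7.75 and 12.13 in PC9GRM2, so that the hours given here are those of the labels and not a measured time in the drug. Under gefitinib in PC9GRM2, DUSP6 then stood at 11.90 at 8 h and 11.67 at 24 h, beside 6.44 and 5.21 in PC9. Of 192 arrays compared with the neighbouring time points of every course of their line, 2 lay nearest to a course of the opposite gefitinib state. They were the arrays labelled PC9GRM2 EGF and PC9GRM2 EGF and gefitinib at 0.5 h. DUSP6 read 7.75 on the former, between 11.98 at 0 h and 12.60 at 1 h, and 12.53 on the latter, between 7.51 and 7.84. Both were kept under their labels. The main member results that use them are also given without 0.5 h, while the gene lists and the correlations between genes rest on all arrays. The untreated arrays of PC9 at 18 h and of PC9GRM2 at 11 h stood apart from their neighbours in time by a median of 0.54 and 0.67 per gene. In all, 3 member values stood alone in their course, namely ANKRD1 in PC9 under gefitinib at 20 h (1.88, between 6.12 and 6.75), AJUBA in PC9 under EGF at 22 h (1.93, between 8.78 and 7.96) and TEAD1 in untreated PC9GRM2 at 17 h (2.02, between 7.71 and 8.17). The 4 treatments of a line at a time point shared a slide, but the lines shared no slide and no scan day, so line and scanning cannot be told apart. Saturated features numbered 221 to 1702 on the PC9 arrays and 0 on the PC9GRM2 arrays. The number of features with signal well above background ranged from 24755 to 36332. Epithelial markers (EPCAM, CDH1, KRT8, KRT18 and KRT19) were well above background on every array, and of the fibroblast markers COL3A1, DCN, PDGFRB and LUM the most often bright, DCN, was so on 19 PC9 and 12 PC9GRM2 arrays. Over the courses of both lines, the summed signal of these 4 probes was 16.6 to 160.2 and that of the epithelial markers 206400 to 375900.

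CCN1, CCN2 and ANKRD1 were lower under gefitinib in PC9. CCN1 ranged from 12.84 to 14.50 without treatment (median 13.18) and from 12.07 to 13.55 under gefitinib (median 12.70), with the ranges overlapping. It fell by 0.61 ± 0.07, and the gefitinib array was the lower at 24 of the 25 time points left after an outlier spot was dropped (adjusted p = 3.7e-08). CCN2 ranged from 6.34 to 8.14 without treatment (median 7.42) and from 3.25 to 7.89 under gefitinib (median 6.03). It fell by 1.23 ± 0.20, which is 2.35-fold, and was lower at 22 of 26 time points (adjusted p = 4.13e-06). ANKRD1 was dim, well above background on 15 of 26 untreated and 12 of 26 gefitinib arrays, and its medians were 4.80 and 4.26. It fell by 0.75 ± 0.24 (adjusted p = 0.00607), a call that was lost with scan day as a random block (adjusted p = 0.066). In windows set after the values were seen, the mean ANKRD1 difference was -0.79 at 0 to 3 h, -1.12 at 4 to 8 h and -1.29 at 9 to 16 h. At 17 to 24 h it was 0.04 ± 1.69 (SD), a window that holds the 20 h value standing alone. In all, 9 of the 10 members were called in this comparison, 2 higher and 7 lower, and 72.2% of all tested genes were called (34.8% higher and 37.4% lower). The median of the members was -0.49, beside -0.03 over all tested genes. Of the endothelial markers, 2 of 3 were bright enough to be tested, and gefitinib changed both, 1 higher and 1 lower in PC9 and 2 higher in PC9GRM2. Their summed signal was 714.3 to 1707 untreated and 833.2 to 1738 under gefitinib in PC9, and 288.2 to 509.2 and 207.6 to 1168 in PC9GRM2. The part of these markers in the results was not tested.

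**Figure D1:**
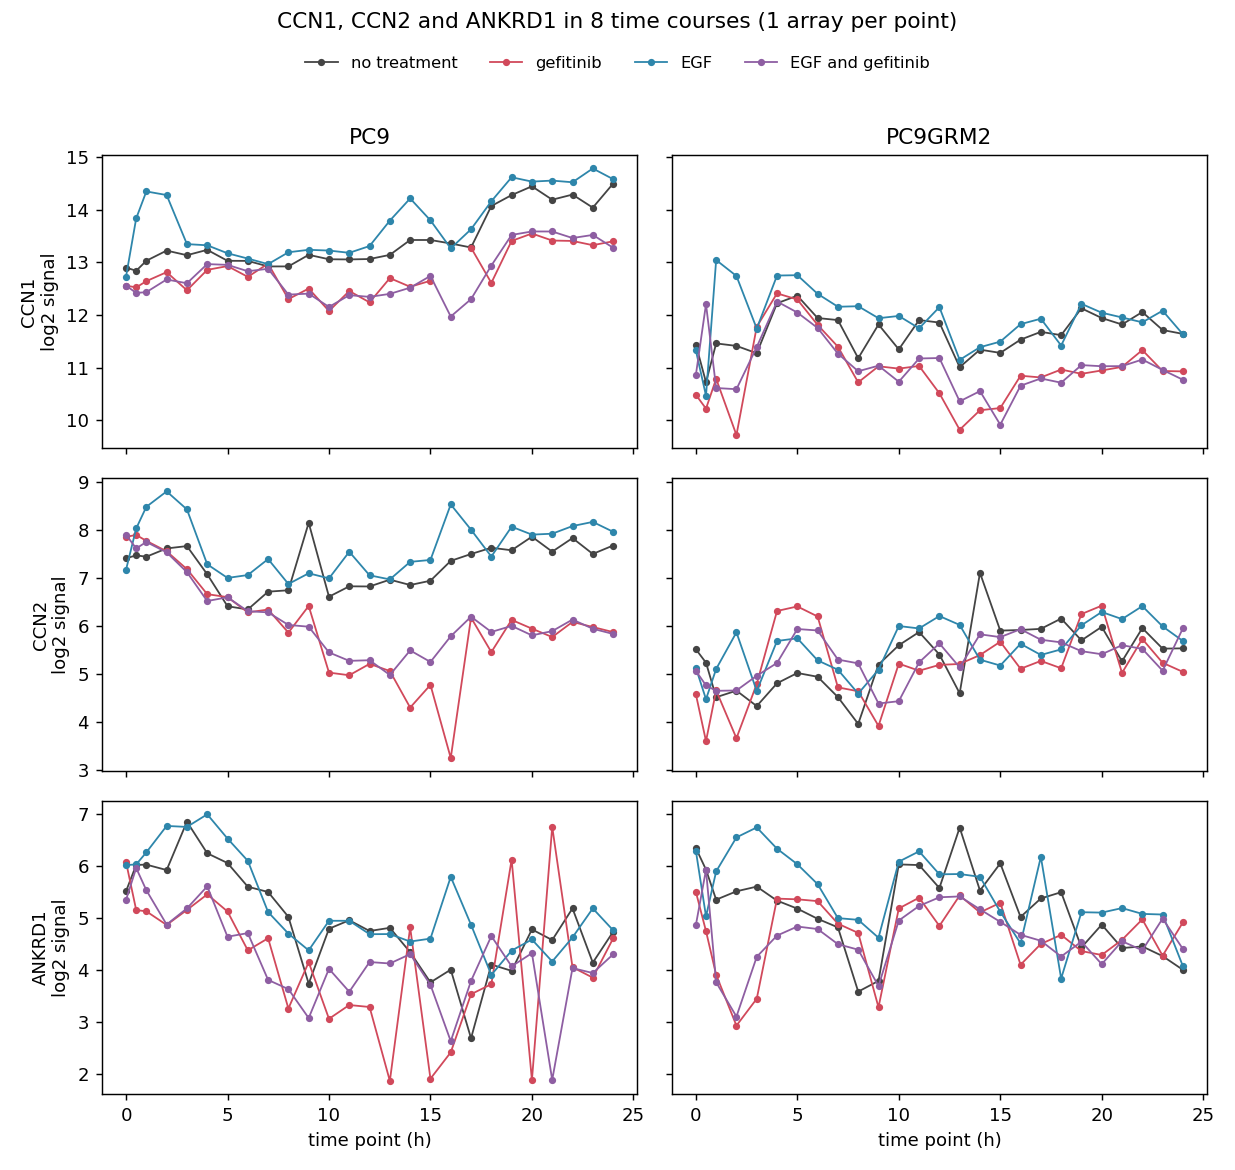
Log2 signal (y axis) of CCN1, CCN2 and ANKRD1 at 26 time points in hours (x axis), with PC9 at the left and PC9GRM2 at the right, 1 line per treatment and 1 point per array. CCN2 under gefitinib in PC9 goes from 7.85 at 0 h to 3.25 at 16 h, while the untreated arrays stay between 6.34 and 8.14.

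The difference in CCN2 in PC9 was largest from the 9 h label on. The mean difference was 0.13 ± 0.40 (SD) at 0 to 3 h, -0.31 ± 0.40 at 4 to 8 h, -2.19 ± 0.84 at 9 to 16 h and -1.71 ± 0.27 at 17 to 24 h, in windows set after the values were seen. The spline test over time called CCN2 (adjusted p = 1.06e-06), as it did 5 of the 10 members and 52.1% of all tested genes. The YAP1 difference was -0.10 ± 0.05 at 0 to 3 h, 0.02 ± 0.15 at 4 to 8 h and -0.36 ± 0.17 at 9 to 16 h. It was lowest at 17 to 24 h, with -0.84 ± 0.13, whereas CCN2 was lowest at 9 to 16 h (adjusted p for change of YAP1 over time = 9.44e-08). The 2 courses were not tested against each other. AJUBA rose from -0.16 ± 0.31 in the earliest window to 1.30 ± 0.22 at 4 to 8 h, and was 0.60 ± 0.35 at 17 to 24 h (adjusted p = 8.93e-06). TEAD1 and AMOTL1 were also called for change over time (adjusted p = 0.00735 and 0.02), whereas CCN1 was not (adjusted p = 0.0701). Scan days followed the time points, so that time and scan day cannot be told apart.

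The coactivator and its DNA-binding partners were lower under gefitinib in PC9. YAP1 ranged from 11.23 to 12.34 without treatment (median 11.73) and from 11.00 to 11.63 under gefitinib (median 11.37). It fell by 0.38 ± 0.07 (adjusted p = 4.34e-05), while its other probe gave -0.11 and was not called (adjusted p = 0.113). TEAD1 fell by 0.60 ± 0.12 from a median of 8.44 (adjusted p = 5.86e-05), and its other probe gave -0.20 (adjusted p = 0.0176). TEAD4 fell by 0.27 ± 0.07 from a median of 11.76 (adjusted p = 0.00129). All 3 ranges overlapped between the treatments.

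Among the regulators of YAP1, AMOTL1 fell and AJUBA and AMOTL2 rose in PC9. AMOTL1 ranged from 7.38 to 8.71 without treatment (median 7.96) and from 6.41 to 7.82 under gefitinib (median 7.30), and was lower at 26 of 26 time points. Its difference was -0.77 ± 0.09 (adjusted p = 7.91e-09). AJUBA ranged from 8.00 to 9.21 without treatment (median 8.65) and from 8.50 to 10.08 under gefitinib (median 9.47), and rose by 0.72 ± 0.12 (adjusted p = 3.28e-06). AMOTL2 rose by 0.23 ± 0.08 from a median of 15.02 (adjusted p = 0.0154), and this call was lost with scan day as a random block (adjusted p = 0.0884). Its probe was saturated on 3 arrays of each of these courses. LATS2 was the member not called, with medians of 10.15 and 10.03 and a difference of -0.12 ± 0.08 (adjusted p = 0.176).

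**Figure D2:**
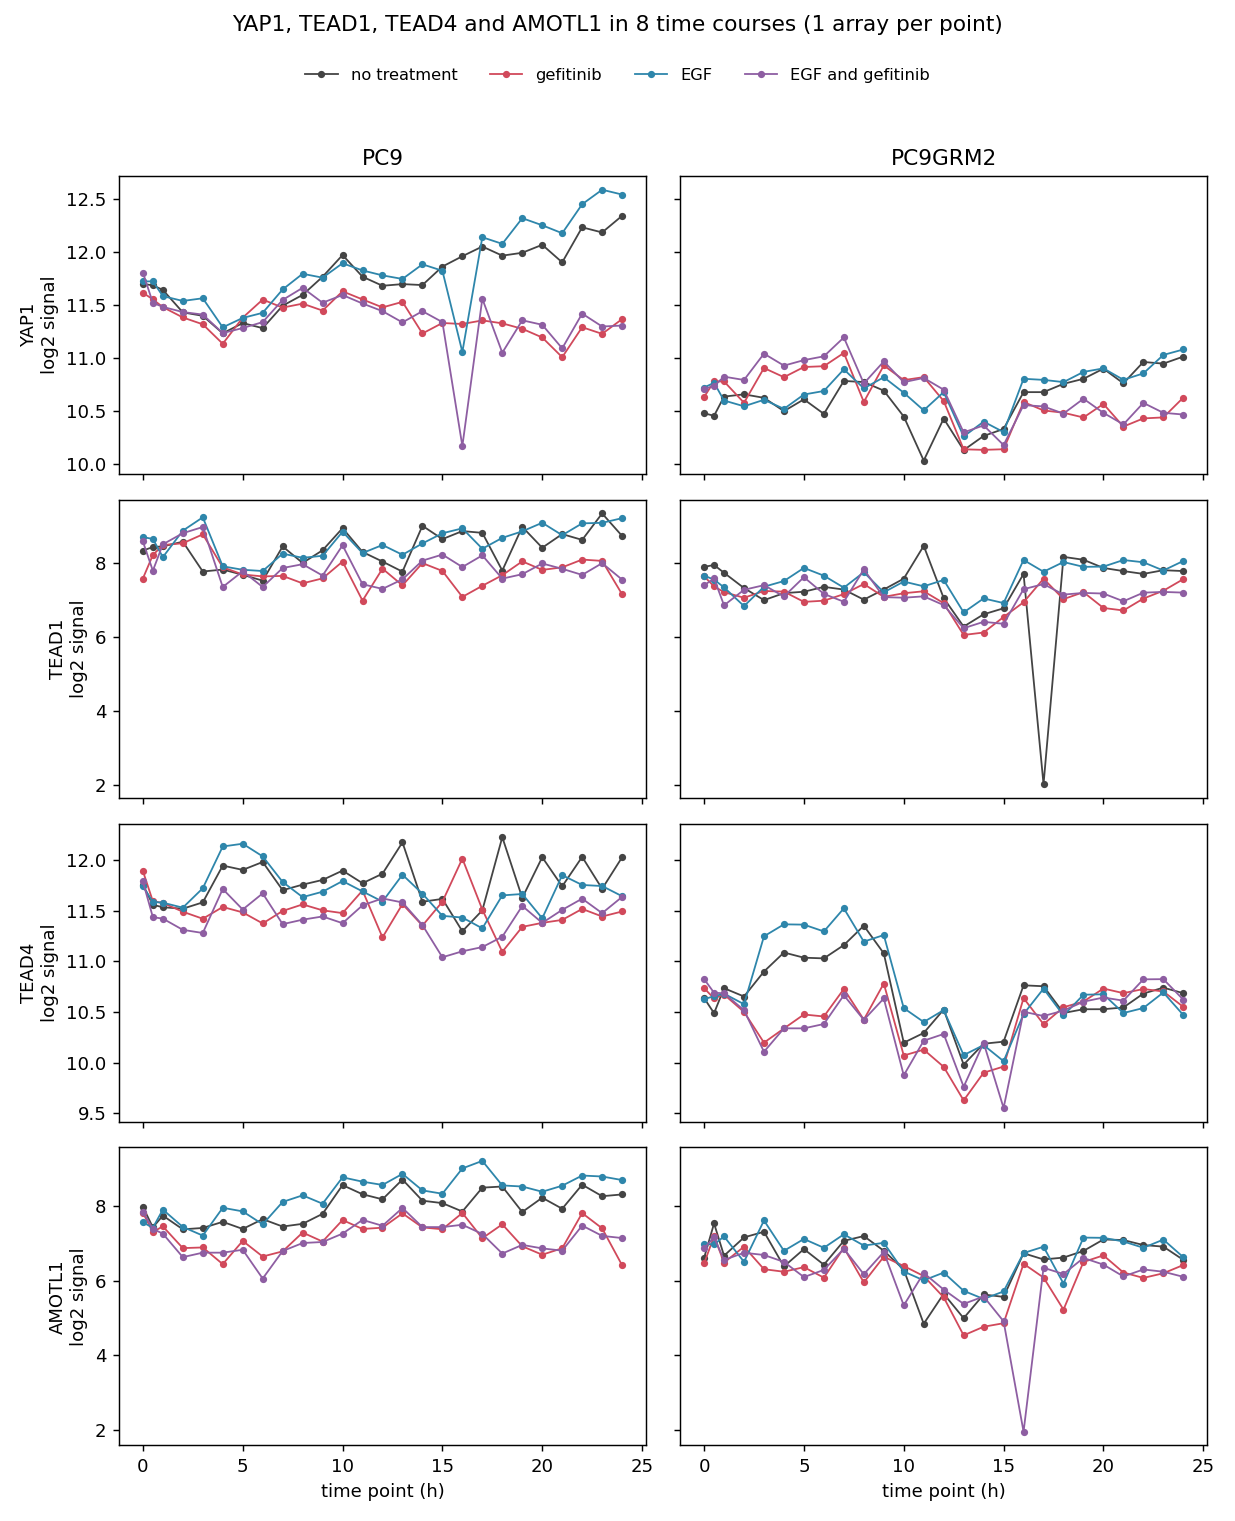
Log2 signal (y axis) of YAP1, TEAD1, TEAD4 and AMOTL1 at 26 time points in hours (x axis), with PC9 at the left and PC9GRM2 at the right, 1 line per treatment and 1 point per array. YAP1 reaches 12.34 at 24 h without treatment and 11.37 under gefitinib in PC9, and the single low TEAD1 point of untreated PC9GRM2 is the 17 h array at 2.02.

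In PC9GRM2 gefitinib lowered CCN1, ANKRD1, TEAD4, LATS2 and AMOTL1 and raised AJUBA. CCN1 ranged from 10.72 to 12.37 without treatment (median 11.66) and from 9.72 to 12.41 under gefitinib (median 10.93). It fell by 0.71 ± 0.09 and was lower at 24 of 26 time points (adjusted p = 9.83e-08). ANKRD1 fell by 0.51 ± 0.16 (adjusted p = 0.00603), TEAD4 by 0.24 ± 0.06 (adjusted p = 0.00155), LATS2 by 0.36 ± 0.07 (adjusted p = 2.51e-05) and AMOTL1 by 0.41 ± 0.10 (adjusted p = 0.000506). AJUBA rose by 0.34 ± 0.06 (adjusted p = 8.65e-06). With 1 higher and 5 lower, 6 of the 10 members were called, beside 66.5% of all tested genes (32.6% higher and 34.0% lower).

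CCN2, AMOTL2, YAP1 and TEAD1 were not called in PC9GRM2. CCN2 ranged from 3.96 to 7.10 without treatment (median 5.46) and from 3.60 to 6.42 under gefitinib (median 5.15), with a difference of -0.18 ± 0.16 (adjusted p = 0.338). Its difference was 1.01 ± 0.55 (SD) at 4 to 8 h and -0.60 ± 0.71 at 9 to 16 h, and it was called for change over time (adjusted p = 0.0122), as were 7 of the 10 members beside 45.3% of all tested genes. YAP1 had a mean difference of 0.00 ± 0.07 (adjusted p = 0.957) that held opposite parts, 0.26 over the first 13 time points (adjusted p = 0.0193) and -0.25 over the last 13 (adjusted p = 0.00132). TEAD1 gave -0.21 ± 0.23 (adjusted p = 0.442), and -0.44 without its outlying value at 17 h (adjusted p = 4.01e-05). AMOTL2 gave 0.02 ± 0.06 (adjusted p = 0.799).

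**Figure D3:**
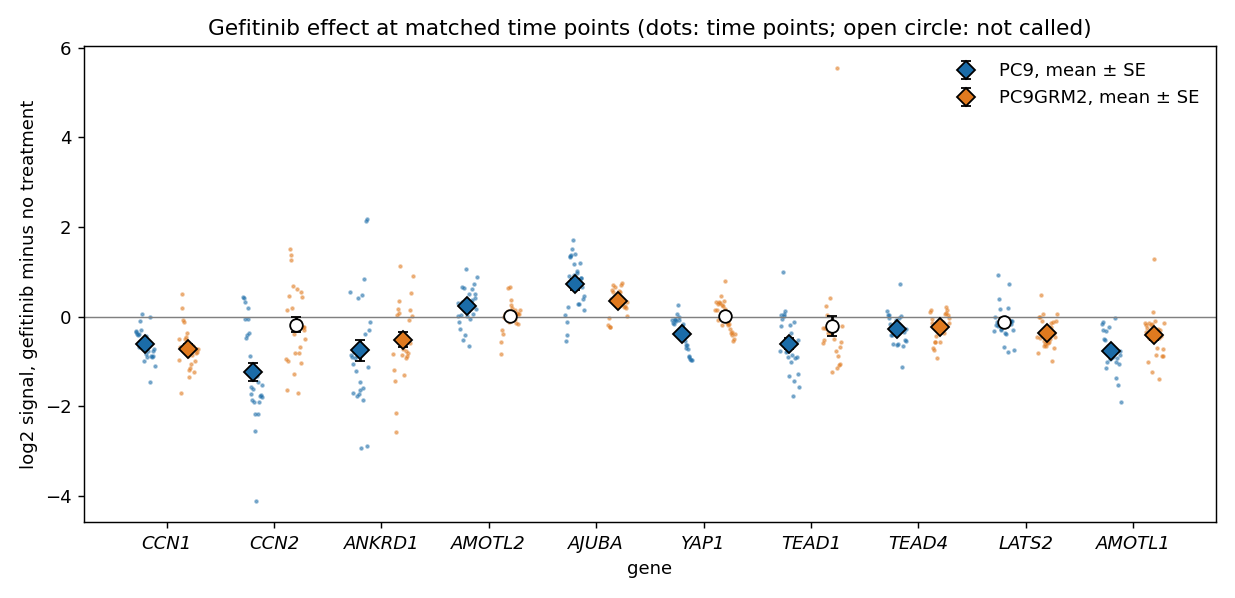
Log2 signal under gefitinib minus no treatment (y axis) for the 10 genes (x axis) in PC9 and PC9GRM2. Dots are single time points, large symbols the mean ± SE, and open circles genes not called. CCN2 lies at -1.23 in PC9 and at -0.18 in PC9GRM2, and AJUBA above 0 in both lines.

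The difference of the gefitinib effects, PC9GRM2 minus PC9, was tested directly and called 4 of the 10 members, 3 higher and 1 lower, beside 34.1% of all tested genes (17.5% higher and 16.6% lower). CCN2 differed by 1.05 ± 0.22 (adjusted p = 0.000397), with 22 of 26 time points in that direction, so that it fell less in PC9GRM2. YAP1 differed by 0.39 ± 0.06 at 24 of 26 time points (adjusted p = 4.81e-06), and its other probe by 0.24 (adjusted p = 0.0943). AMOTL1 differed by 0.36 ± 0.13 (adjusted p = 0.0385, and 0.0692 with scan day as a random block), and its other probes by 0.56 and 0.59 (adjusted p = 0.000187 and 0.000579). AJUBA differed by -0.38 ± 0.10 (adjusted p = 0.00274), so that it rose less in PC9GRM2. CCN1 gave -0.10 ± 0.11 (adjusted p = 0.514) and TEAD4 0.04 ± 0.09 (adjusted p = 0.786). DUSP6 differed by 4.65 ± 0.46 as a mean over the course (adjusted p = 1.65e-08), although at 0 h its gefitinib value was lower in PC9GRM2 (7.75) than in PC9 (9.32).

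**Figure D4:**
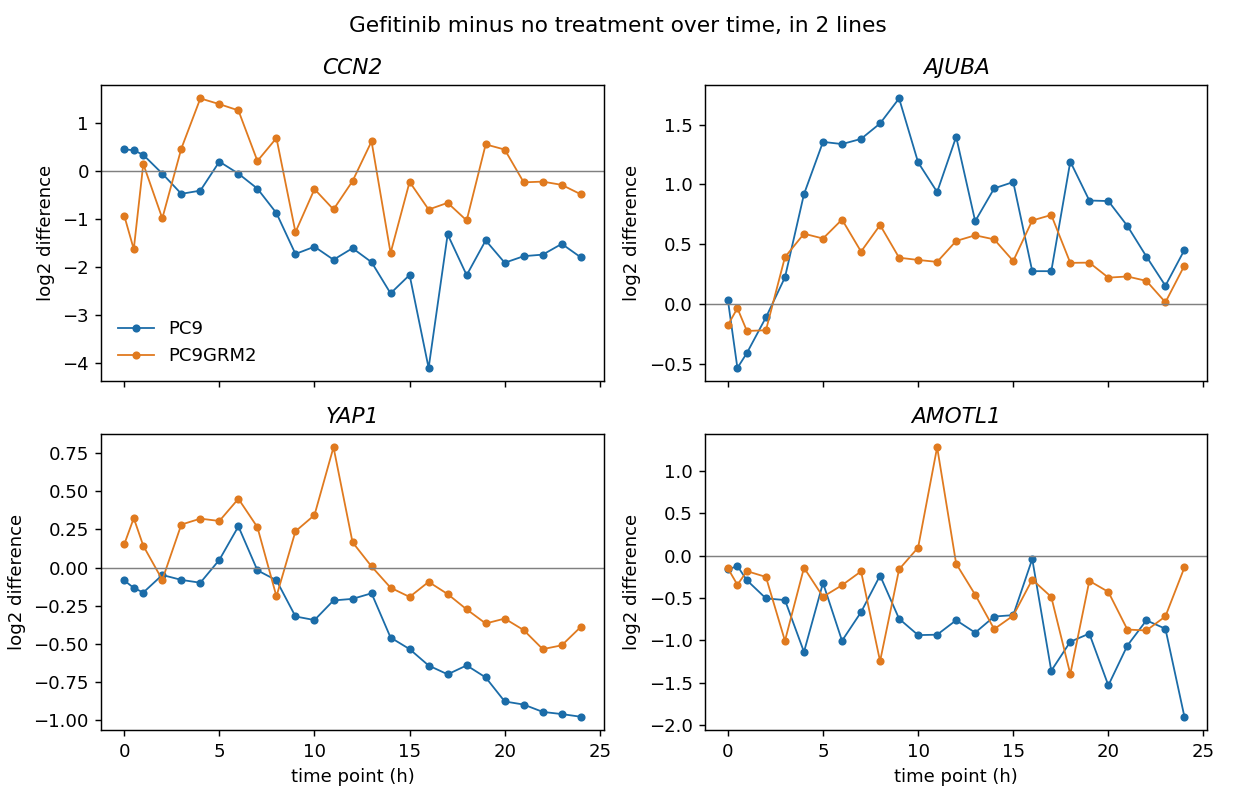
Log2 signal under gefitinib minus no treatment (y axis) against the time point in hours (x axis) for CCN2, AJUBA, YAP1 and AMOTL1, 1 line per cell line and 1 point per time point. The means at 17 to 24 h are -1.71 in PC9 and -0.25 in PC9GRM2 for CCN2, and -0.84 and -0.37 for YAP1.

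With EGF present, gefitinib again lowered CCN1, ANKRD1 and AMOTL1 and raised AJUBA in both lines, and 9 of 10 members were called in PC9, 2 higher and 7 lower, and 6 of 10 in PC9GRM2, 1 higher and 5 lower. Of all tested genes 78.9% were called in PC9 (38.9% higher and 40.0% lower) and 74.4% in PC9GRM2 (36.5% higher and 37.9% lower). CCN1 fell by 1.00 ± 0.09 in PC9 and was lower at 26 of 26 time points (adjusted p = 1.42e-10), and CCN2 fell by 1.47 ± 0.15 (adjusted p = 5.38e-10). ANKRD1 fell by 1.02 ± 0.15 (adjusted p = 5.21e-07) and AMOTL1 by 1.16 ± 0.10 (adjusted p = 4.62e-11). AJUBA rose by 1.45 ± 0.27, or 1.22 without its outlying value at 22 h (adjusted p = 2.04e-05 and 3.84e-07). In PC9GRM2 CCN1 fell by 0.90 ± 0.14, and by 1.00 without the 0.5 h arrays (adjusted p = 9.38e-07 and 2.18e-10). CCN2 gave -0.23 ± 0.12 there (adjusted p = 0.0846), or -0.25 without 0.5 h (adjusted p = 0.0664).

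EGF without gefitinib raised CCN1 and CCN2 in PC9, most at the early time points. CCN1 rose by 0.33 ± 0.07 over the 26 time points, at 24 of them (adjusted p = 0.000814), and CCN2 by 0.40 ± 0.09, at 23 of them (adjusted p = 0.00114). AMOTL1 rose by 0.31 ± 0.07 (adjusted p = 0.000621). These 3 of 10 members were called, all higher, beside 25.5% of all tested genes (11.2% higher and 14.3% lower). No member was called when arrays of a time point were left unpaired. The share of all tested genes called in that setting is not given here. AJUBA gave -0.56 ± 0.24 (adjusted p = 0.0938), and -0.31 without its outlying value (adjusted p = 0.00465). In PC9GRM2 CCN1 alone was called, with 0.30 ± 0.08 and 0.32 without 0.5 h (adjusted p = 0.0223 and 0.0123), beside 9.06% of all tested genes (4.14% higher and 4.91% lower).

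At single time points, CCN1 in PC9 read 12.84, 13.03, 13.22 and 13.14 at 0.5, 1, 2 and 3 h without treatment and 13.84, 14.35, 14.28 and 13.35 with EGF. CCN2 read 7.47, 7.44, 7.61 and 7.66 without treatment and 8.03, 8.48, 8.80 and 8.42 with EGF. Every EGF value of the pair of genes was above the untreated value of the same time point. Over these 4 time points alone, CCN1 rose by 0.90 ± 0.18 and CCN2 by 0.89 ± 0.12, but limma called neither (adjusted p = 0.548 and 0.227). No gene at all was called there (0.0%), with 991 of all genes and 3 of the members at an unadjusted p under 0.05. Without 3 h, CCN1 gave 1.12 and was called (adjusted p = 0.022), but it was not called on leaving out 0.5, 1 or 2 h. Under gefitinib the early EGF differences were -0.08 ± 0.07 for CCN1 and -0.10 ± 0.07 for CCN2 (adjusted p = 0.54 and 0.426), and AJUBA was the 1 member called, with 0.30 ± 0.06 (adjusted p = 0.037), beside 6.84% of all tested genes (3.32% higher and 3.52% lower). This AJUBA call was lost on leaving out any of the 4 time points (adjusted p from 0.0748 to 0.145), with no filter on dim genes (0.0715), a floor of 16 (0.0524) and the methods' t-test (0.136). The early EGF effects with and without gefitinib differed by -0.98 ± 0.24 for CCN1 and -0.98 ± 0.12 for CCN2 (adjusted p = 0.312 and 0.179), and by -1.27 and -1.04 without 3 h (adjusted p = 0.0276 and 0.0484). Neither difference was called on leaving out 0.5, 1 or 2 h.

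In PC9GRM2 the array labelled EGF at 0.5 h read 10.46 for CCN1, beside 10.72 untreated, and those at 1 and 2 h read 13.04 and 12.74, beside 11.46 and 11.41 untreated. The array labelled EGF and gefitinib at 0.5 h read 12.21, beside 10.86 at 0 h and 10.61 at 1 h. No member was called in PC9GRM2 over the early time points, with or without gefitinib (0.0% of all tested genes, with 0 and 2 of the members at an unadjusted p under 0.05). CCN1 gave 0.78 ± 0.32 (adjusted p = 0.909) and, without 0.5 h, 1.13 (adjusted p = 0.722).

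Over all time points and in the presence of gefitinib, EGF changed no member in PC9, where 0.0452% of all genes were called by limma and 1 member had an unadjusted p under 0.05. In PC9GRM2 LATS2 rose by 0.21 ± 0.05 (adjusted p = 0.014), where 3.13% of all tested genes were called (0.98% higher and 2.15% lower). The other LATS2 probe gave 0.13 and was not called (adjusted p = 0.0895), and the call was lost without the pairing. Without the 0.5 h arrays LATS2 gave 0.21 (adjusted p = 0.0111) and YAP1 rose by 0.07 (adjusted p = 0.0466).

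Without treatment 7 members were lower in PC9GRM2 than in PC9, and none was higher. CCN1 (medians 11.66 and 13.18) differed by -1.79 ± 0.11, which is 3.45-fold, and CCN2 (medians 5.46 and 7.42) by -1.90 ± 0.15, which is 3.73-fold (adjusted p = 9.69e-15 and 2.69e-12). YAP1 differed by -1.16 ± 0.07, TEAD4 by -1.11 ± 0.09, AMOTL1 by -1.43 ± 0.18 and LATS2 by -0.91 ± 0.14 (adjusted p = 2.39e-15, 2.91e-12, 7.36e-08 and 1.01e-06). TEAD1 (medians 7.47 and 8.44) differed by -1.13 ± 0.24 (adjusted p = 0.000129), though by -0.28 with its other probe (adjusted p = 0.00597). The -1.13 includes the PC9GRM2 value of 2.02 at 17 h that stood alone. ANKRD1 gave 0.25 ± 0.21, AMOTL2 -0.06 ± 0.11 and AJUBA 0.17 ± 0.10, none of them called. The AMOTL2 probe was saturated on 3 untreated PC9 arrays and on 0 untreated PC9GRM2 arrays. The 26 untreated PC9GRM2 values lay wholly below the 26 PC9 values for CCN1 and YAP1, in a comparison that called 68.1% of all tested genes (30.3% higher and 37.8% lower). Ranges were compared for the members only, so the share of all tested genes that lay apart in this way is not known. In these bulk samples of cultured lines, fewer cells of a subpopulation and less RNA per cell cannot be told apart. PECAM1 was well above background on 103 PC9 and 104 PC9GRM2 arrays, VWF on 104 of each, and CDH5 on 18 and 16. Summed signals of these endothelial markers were 714.3 to 1707 in untreated PC9 and 288.2 to 509.2 in untreated PC9GRM2. Their part in the result was not tested. The median of the members was -1.12, beside -0.06 over all tested genes.

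**Figure D5:**
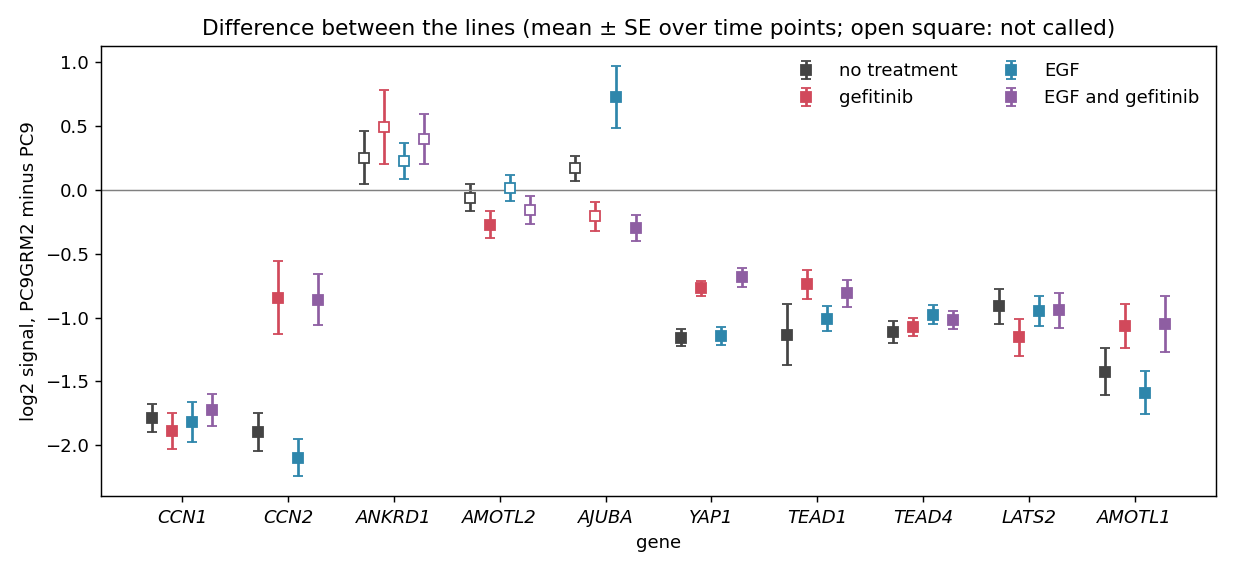
Log2 signal of PC9GRM2 minus PC9 (y axis, mean ± SE over matched time points) for the 10 genes (x axis) under each of the 4 treatments, with open squares for genes not called. CCN1 lies between -1.89 and -1.72 under all 4 treatments, while CCN2 goes from -1.90 without treatment to -0.85 under gefitinib.

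CCN1, CCN2, YAP1, TEAD1, TEAD4, LATS2 and AMOTL1 were lower in PC9GRM2 under each of the 4 treatments. Under gefitinib 8 of 10 members were lower in PC9GRM2 and none higher (of all tested genes 64.7% were called, 29.9% higher and 34.8% lower). Under EGF 7 were lower and 1 higher (69.8%, with 32.1% higher and 37.7% lower), and under EGF and gefitinib 8 were lower (67.7%, with 30.6% higher and 37.1% lower). CCN2 differed by -2.10 ± 0.14 under EGF, with ranges that did not overlap (adjusted p = 1.32e-13), and by -0.85 ± 0.29 under gefitinib (adjusted p = 0.0114). The call under gefitinib was lost with scan day as a random block (adjusted p = 0.0711), and over the last 13 time points CCN2 gave 0.05 (adjusted p = 0.856). TEAD4 lay wholly lower in PC9GRM2 under gefitinib and under EGF and gefitinib, with differences of -1.07 ± 0.07 and -1.02 ± 0.07. Here too ranges were compared for the members only. AJUBA was higher by 0.73 ± 0.24 under EGF, or by 0.48 without its outlying value (adjusted p = 0.00907 and 1.86e-05), and differed by -0.30 ± 0.10 under EGF and gefitinib (adjusted p = 0.0136). Both AJUBA calls were lost with scan day as a random block (adjusted p = 0.206 and 0.0877). Without the 0.5 h arrays the counts under EGF and under EGF and gefitinib were again 8 and 8, with CCN2 at -2.04 and AJUBA at 0.76 under EGF and TEAD4 at -1.03 under EGF and gefitinib.

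Ordered by their medians, the CCN2 courses were PC9 EGF (7.49), PC9 untreated (7.42), PC9 gefitinib (6.03), PC9 EGF and gefitinib (5.99), PC9GRM2 EGF (5.65), untreated (5.46), EGF and gefitinib (5.35) and gefitinib (5.15). Of these neighbours, the PC9 courses with and without EGF differed without gefitinib and were not called under it (adjusted p = 0.518). In PC9GRM2 neither the gefitinib nor the EGF comparisons of CCN2 were called. The medians of the CCN1 courses lay, in PC9, between 13.71 (EGF) and 12.64 (EGF and gefitinib) and, in PC9GRM2, between 11.94 (EGF) and 10.93 (gefitinib).

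Without any treatment the members also moved over the 24 h. The spline test called 8 of 10 in PC9 (66.5% of all tested genes) and 9 of 10 in PC9GRM2 (67.4%). In PC9 the fitted CCN1 curve spanned 1.46 (adjusted p = 1.12e-08) and the values went from 12.90 at 0 h to 14.50 at 24 h. ANKRD1 spanned 2.08 (adjusted p = 1.91e-05), from 5.51 at 0 h through 6.85 at 3 h to 4.73 at 24 h. YAP1 spanned 0.96 (adjusted p = 3.32e-06), from 11.70 to 12.34. In PC9GRM2 AJUBA spanned 1.37 (adjusted p = 2.75e-09), from 9.87 at 0 h to 9.01 at 24 h with its lowest value, 8.16, at 13 h. The spans are those of the fitted curves.

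Other genes of the Hippo pathway, from a list of 21 of which 20 were tested, moved in both directions. Under gefitinib 5 rose and 11 fell in PC9 and 4 rose and 10 fell in PC9GRM2, with list medians of -0.28 and -0.24 beside -0.03 and -0.01 over all genes. Those 16 and 14 of 20 genes stand beside 72.2% and 66.5% of all tested genes called. FRMD6, a FERM protein upstream of the Hippo kinases, fell by 1.96 ± 0.21 in PC9 and 1.11 ± 0.10 in PC9GRM2 (adjusted p = 4.34e-09 and 7.71e-11). VGLL3, a TEAD cofactor of the Vestigial-like family, rose by 1.81 ± 0.21 and 1.53 ± 0.15 (adjusted p = 1.8e-08 and 1.07e-09). MAP4K4, a kinase that can act on LATS, fell by 1.34 ± 0.14 in PC9 and 0.55 ± 0.07 in PC9GRM2 (adjusted p = 3.72e-09 and 1.57e-07). NF2, the scaffold protein merlin, fell by 1.15 ± 0.19 and 1.13 ± 0.13 (adjusted p = 4.25e-06 and 2.56e-08). EGF raised 6 and lowered 2 of the list in PC9 and raised 1 and lowered 3 in PC9GRM2. Of all tested genes it raised 11.2% and lowered 14.3% in PC9, and 4.14% and 4.91% in PC9GRM2. WWTR1, which encodes TAZ, the paralogue of YAP1, rose with EGF by 0.36 ± 0.05 and 0.36 ± 0.08 (adjusted p = 1.77e-06 and 0.00317). The angiomotin gene AMOT fell by 0.44 ± 0.05 and 0.42 ± 0.08 with EGF (adjusted p = 8.41e-07 and 0.000737). Between the untreated lines 5 were higher and 9 lower in PC9GRM2, beside 30.3% and 37.8% of all tested genes, led by VGLL3 (2.54 ± 0.17), WWC1 (-1.37 ± 0.10) and SAV1 (1.28 ± 0.12).

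Of 17 further genes of a published YAP and TAZ target signature, 14 were tested. Under gefitinib 4 rose and 9 fell in PC9 (median -0.63) and 3 rose and 5 fell in PC9GRM2 (median -0.03), beside 72.2% and 66.5% of all tested genes called. In PC9 FJX1 fell (-1.93 ± 0.11), as did GADD45A, a stress-response gene (-1.77 ± 0.13), and IGFBP3, a secreted binding protein of insulin-like growth factors, rose by 1.39 ± 0.18 (adjusted p = 1.46e-14, 3.57e-12 and 6.51e-08). In PC9GRM2 CCDC80 rose by 1.41 ± 0.22, and F3, tissue factor, and GADD45A fell by 1.30 ± 0.11 and 1.12 ± 0.17 (adjusted p = 1.74e-06, 2.48e-11 and 9.78e-07). EGF raised 4 and lowered 0 of these genes in PC9, with F3 at 0.51 ± 0.06, and raised 2 and lowered 0 in PC9GRM2. Of all tested genes EGF raised 11.2% and lowered 14.3% in PC9, and 4.14% and 4.91% in PC9GRM2. Without treatment 3 were higher and 9 lower in PC9GRM2 than in PC9, beside 30.3% and 37.8% of all tested genes. AXL, a receptor tyrosine kinase, was higher by 3.46 ± 0.12, and NUAK2 and CRIM1 differed by -1.77 ± 0.12 and -1.32 ± 0.11 (adjusted p = 1.31e-20, 1.45e-13 and 1.57e-11).

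After the mean of the 4 arrays of each line and time point was subtracted, members were set against each other over all arrays, 26 in each of the 8 courses, which share slides and treatments. CCN1 and CCN2 had a Pearson r of 0.65 and CCN1 and AMOTL1 of 0.59, while AJUBA and AMOTL1 had -0.57. Among all tested genes CCN1 was most like EDN1 (r = 0.90), TGFA (0.89) and KCTD5 (0.89), where EDN1 encodes endothelin-1 and TGFA an EGFR ligand. Among the genes most like CCN2 were VEGFC (0.83) and USP44 (0.81), and YAP1 was most like WDR81 (0.85), DSE (0.85) and SYT14 (0.84). AMOTL1 was most like CDCP1 (0.82), TRIO (0.81) and VEGFA (0.81), and AJUBA like ZNF184 (0.88), MRPL10 (0.88) and TMEM101 (0.83). The highest r was 0.67 for ANKRD1 (TNS4), 0.66 for AMOTL2 (HEXIM1), 0.87 for TEAD1 (PDP1), 0.85 for TEAD4 (RPP25) and 0.72 for LATS2 (TAF2). These are descriptions of the arrays, given without a test.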

How the data were processed

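RNA of each line, treatment and time point was hybridised to one-colour Agilent 44K arrays, and the authors deposited the scanner intensity of every feature (processed signal of Feature Extraction 10.5.1.1, per the file headers) together with a table of intensities on the linear scale, which equalled the quantile-normalized signals computed here. The build named in the headers is hg18. The processed signals were quantile normalized here over all arrays, log2-transformed with a floor of 1, outlier spots were dropped and spots of a probe averaged. Of 41000 probes, 24789 were assigned to a symbol through RefSeq accessions. A gene was represented by its probe of largest variance and was tested if well above background on 13 of the 26 arrays of any course. Courses were compared at matched time points with limma 3.58.1 in R 4.3.3 (two-sided), and over time with a natural spline of 4 degrees of freedom. Treatments within a line were paired through the 52 slides, each of which carried every treatment of a line at the same time point. The lines shared no slide, so PC9GRM2 was paired with PC9 by the label of the time point only. Nothing says that time points came from separate experiments, so p-values measure the spread between time points, and neighbouring time points are not independent. Named genes were the members, at most 3 called genes of largest difference from each list and the 3 genes most correlated with each member. Members and lists were chosen with earlier results of these data known. Statistics were tested on simulated data drawn independently at each time point. That cannot show how the tests behave where neighbouring time points are alike. Alternatives comprised other scalings, probes, filters, time points and tests. Intensities of arrays have no counting depth, and their number limits the precision. A gene most correlated with a member and the result of a marker list are not reported here.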

Additional observations from a re-analysis of the deposited data

Results flagged for a closer look

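For 4 genes the gefitinib effect differed between the lines by limma's test of the difference itself, PC9GRM2 minus PC9, on the log2 scale. CCN2 differed by 1.05 and was higher at 22 of 26 time points. YAP1 differed by 0.39 and AMOTL1 by 0.36, while AJUBA differed by -0.38. The lines shared no scan day, and each difference was taken between effects measured within a slide. The AMOTL1 call was lost with scan day as a random block.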

How the results depend on the processing

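Of 3397 member values under the alternatives, 3221 kept their side of the threshold, 126 lost the call, 47 gained it and 3 reversed. Direction was compared only where the value was called in the main or the alternative setting, and not in the tests over time. The reversed values were YAP1 under gefitinib in PC9GRM2 over the last 13 time points (-0.25), YAP1 under gefitinib with EGF in PC9GRM2 over the first 13 (0.22) and CCN2 in PC9GRM2 against PC9 under gefitinib over the last 13 (0.051). Of 342 counts of members called, 306 stayed within 1.5 times the reported one. The shares of all tested genes called under the alternatives are not given beside the counts below. These counts therefore do not show whether members changed more than other genes. For EGF in PC9GRM2 the count of 1 became 2 with normexp background correction, the mean of all probes, a floor of 16, the methods' t-test or without the untreated arrays that stood apart, and 3 with the probe of highest mean. With that probe the count for EGF with gefitinib in PC9GRM2 went from 1 to 0, and without 0.5 h it was 2. For early EGF with gefitinib in PC9 the count went from 1 to 0 with no filter, the floor of 16, the methods' t-test and on leaving out any time point (0 to 0). Leaving out single early time points gave 0 to 1 for early EGF in PC9 and 0 to 2 for the early difference in PC9. A one-sided test for higher values in PC9GRM2 called 0 members without treatment, 0 under gefitinib, 1 under EGF and 0 under both. That test cannot call a member that is lower in PC9GRM2. It gave 30 of the 126 lost calls, which therefore say nothing about the processing.

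With no replicate block, that is without the pairing by time point, the counts were 0 for EGF in PC9 and 0 for EGF in PC9GRM2. They were 0 for EGF with gefitinib in PC9GRM2 and 2 for the difference of the gefitinib effects. Time points 3 h apart gave 0, 0, 0 and 1 for these. The first 13 time points gave 0, 0, 0 and 1, and 5 for gefitinib in PC9. The last 13 gave 0 for EGF in PC9GRM2 and 2 for the difference. The settings with points 3 h apart and with 13 time points use fewer time points, while the unpaired setting keeps all of them. The cause of the lower counts was not tested. The shares of all tested genes called in these settings are not given here. Whether the members lost calls more often than other genes is therefore not shown. Settings that leave out the doubted arrays or single values were chosen after seeing the data. The normexp setting used median spot signals. ANKRD1 was near background in PC9, which limits its values.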
